A study of Mus musculus with 60 samples.

Results

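The genes described here are the subunits and assembly factors of mitochondrial oxidative phosphorylation. They were taken by symbol from the table of 47729 mouse genes: complex I (Ndufa, Ndufb, Ndufc, Ndufs and Ndufv), complex II (Sdha to Sdhd), complex III (Uqcr), complex IV (Cox4 to Cox8), complex V (Atp5) and the genes carried by mitochondrial DNA (mt-Nd, mt-Co, mt-Cytb and mt-Atp), with hyphenated pseudogene symbols left out. The rule gave 110 genes, 97 encoded in the nucleus and 13 in the mitochondrial genome, and no measured value entered it. Of the 97 nuclear members, 4 are annotated as processed pseudogenes (Cox6c2, Ndufa11b, Ndufb4c and Ndufs6b).

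PyMT-Bo1 cells are a line of mouse breast cancer that forms tumors in bone. Before injection the cells were stained with Vybrant DiD, a membrane dye that is diluted at each division, and they were then given to wild-type C57BL6 mice through the heart. The line carried H2B-mApple, Luc2 and Thy1.1 as transgenes, and Thy1.1 served for magnetic enrichment before the sort. Cells came from the femurs and tibias of 5 mice. The groups were the 32 cells that had kept the dye (DiD+, called dormant) and the 28 that had lost it (DiD-, called proliferative). No mouse was named for a cell, so each group is 1 sample and no test between groups can be made. The spread given below is between cells and may hold differences between mice. The cells were numbered 17 to 46 and 63 to 92, with both groups in each run. The groups were present in different proportions in each run. What separates these runs is not given, and no median was taken by run. The spread between cells may hold differences between the runs as well. Both groups carried the same dye treatment, transgenes and host strain.

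Oxidative phosphorylation passes electrons from NADH and succinate through complexes I to IV to oxygen, and complex V uses the proton gradient so formed to make ATP. Complexes I, III, IV and V are mosaics of subunits from 2 genomes, since mitochondrial DNA encodes one or more hydrophobic core subunits of each, while complex II is wholly nuclear. Nuclear subunit genes are transcribed one by one under factors such as NRF1, GABP and ERR, whereas the mitochondrial genome is transcribed as long precursors that are cut into single messages.

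Estimated counts on mouse genes ran from 2276789 to 7794219 per DiD+ cell and from 2624405 to 6199108 per DiD- cell. Levels below are CPM, counts scaled to a fixed total of these per library, summed over the cells of a group unless a cell is named, and ratios are log2 of DiD+ over DiD- with 1 CPM added. Intervals are exact Poisson 95% intervals that cover counting error only. The epithelial keratins were present, Krt8 in 60 of 60 cells and Krt18 in 58, while Krt19 and Epcam were at 0 in both groups and Cdh1 had a count in 1 cell. Of the 13 macrophage or monocyte markers, at least 7 were present at 10 counts or more in 6 DiD+ wells and 1 DiD- well, although the sort used CD45 staining to leave out blood cells. Ptprc, which encodes CD45, had 162 counts in all, and 6 of the 7 cells with a count were among these wells. In addition, 3 wells of each group held 4 or more of the 7 erythroid markers. Sums without these wells are given where they matter, and the S phase and G2/M lists were lower in DiD+ cells, with median ratios of -0.75 and -0.64.

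The nuclear members were close to equal between the groups. The DiD+ sum was 21356 CPM (21332 to 21380) and the DiD- sum 21575 CPM (21549 to 21602), which gave a log2 ratio of -0.01. Of the 97, 86 reached 1 CPM in a group, and their median ratio was 0.08, beside 0.04 over the 12432 genes at that level. The member ratio was above 0 for 57 of the 86 and below 0 for 29, where 53.2% of all genes were above 0. This excess rested on DiD+ cell 35, which had the highest nuclear sum: without it 42 of the 86 were above 0 and the median was -0.0017, beside 0.04 over all genes. Only Ndufv3 and Ndufaf3 were at least 1.5-fold higher in DiD+ cells and only Ndufaf6 was at least 1.5-fold lower, so 83 of the 86 stayed within that range. Over all genes, 20.8% were at least 1.5-fold higher and 12.1% at least 1.5-fold lower. The members are abundant, and 67 of them reached 100 CPM. Among the 2405 genes that did so, 41.6% were above 0, 6.69% were at least 1.5-fold higher and 7.78% at least 1.5-fold lower. Of the 67 members the numbers were 43 (64.2%), 1 (1.49%) and 0. These shares were not recomputed without DiD+ cell 35.

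The mitochondrially encoded members were higher in DiD+ cells relative to the library total. The DiD+ sum here was 14028 CPM (14009 to 14047) and the DiD- sum 10288 CPM (10270 to 10306), which gave a log2 ratio of 0.45. The log2 ratio of the medians over cells was smaller, 0.22, with 18 of 32 DiD+ cells above the DiD- median. Scaled to the ERCC spike-ins, the ratio of the sums was -0.062. The median over the 13 genes was 0.43, and 12 of the 13 had a ratio above the upper quartile of the nuclear members, 0.20. Divided by the nuclear sum, which removes the library total, the mitochondrial sum was 0.657 in DiD+ and 0.477 in DiD- cells, a log2 difference of 0.46.

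**Figure D1:**
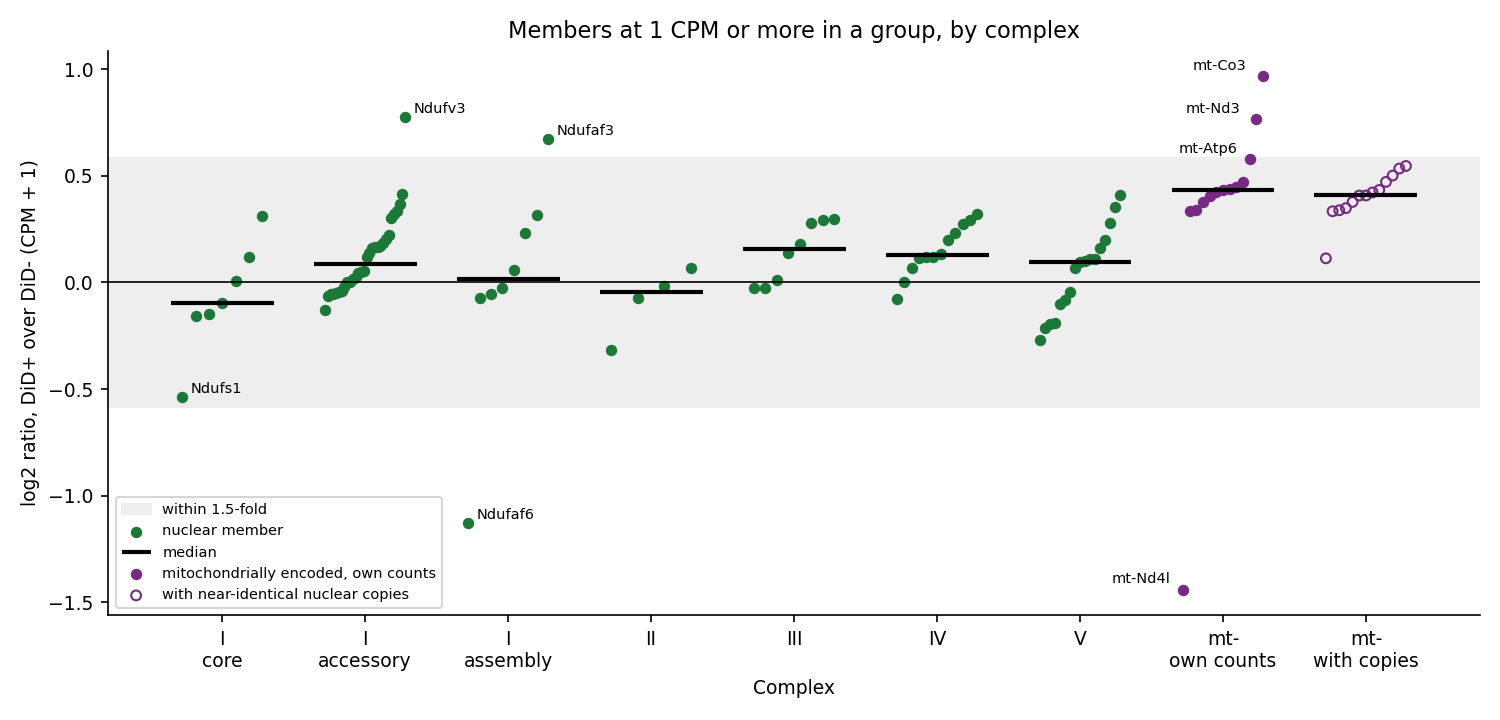
Log2 ratio of DiD+ over DiD- (vertical axis) for members at 1 CPM or more in a group, by complex, with medians as bars and the range within 1.5-fold shaded. Nuclear members center near 0 with Ndufv3, Ndufaf3, Ndufaf6 and Ndufs1 away from the rest, and mitochondrially encoded members center at 0.43 on their own counts and 0.41 with the counts of their nuclear copies.

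Within complex I, the 7 nuclear core subunits, among them those with the flavin and the iron-sulfur clusters, had a median ratio of -0.10, with 3 above 0 and 4 below. Ndufs1, the largest iron-sulfur subunit (1:63143596-63176833 in GRCm38), was the lowest of the 7. Its level over cells was 12.8 to 444 CPM with a median of 125 CPM in DiD+ cells and 0 to 617 CPM with a median of 217 CPM in DiD- cells. The groups overlapped over nearly their whole range, and the pooled levels were 140 (138 to 142) and 204 (201 to 206) CPM, a log2 ratio of -0.54. Without the wells that held macrophage markers this ratio was -0.43. Ndufv1, the NADH-site subunit, had a ratio of -0.16, and Ndufs3 had the highest of the core, 0.31.

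The 30 accessory subunits of complex I at 1 CPM or more had a median ratio of 0.09, and 22 were above 0. Without DiD+ cell 35 the median was 0.011 with 15 above 0, and by the BASiCS values it was -0.025. They ran from -0.13 for Ndufb8 to 0.77 for Ndufv3, a small subunit of the NADH-oxidizing module on chromosome 17 (17:31520115-31531331). Ndufv3 had a count in every cell, at 30.7, 113 and 252 CPM (lowest, median and highest) in DiD+ cells and 29.3, 54.8 and 152 CPM in DiD- cells. The lowest cells of both groups were alike, and the DiD+ median was above the DiD- median. The pooled levels were 119 (117 to 121) and 69.1 (67.6 to 70.6) CPM. No single cell carried the difference: the largest share of the DiD+ counts from a single cell was 8.11%, and the ratio stayed between 0.71 and 0.84 as each cell was left out. Next in order were Ndufa1, at 0.42, and Ndufb4, at 0.37.

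The 8 assembly factors of complex I, which build the complex and are not part of it, spread the widest. Ndufaf6 (4:11051045-11076205) had a count in 17 of 32 DiD+ cells and 27 of 28 DiD- cells, the same numbers after each cell was thinned to 2200000 counts. Its median over cells was 9.31 CPM in DiD+ cells, with a highest cell of 98.9 CPM, and 43.4 CPM in DiD- cells, with a highest cell of 154 CPM. Both groups had cells at 0, and the pooled levels were 19.98 (19.3 to 20.7) and 44.9 (43.7 to 46.1) CPM, a ratio of -1.13. Without the macrophage wells it was -0.88. Ndufaf3 (9:108565537-108567434) went the other way, with a DiD+ level of 23.4 CPM (22.6 to 24.2), a DiD- level of 14.3 CPM and a ratio of 0.67. It had a count in 24 of 32 and 20 of 28 cells, and without 1 DiD+ cell, number 75, the ratio was 0.56 and below 1.5-fold. The other 6 assembly factors ran from -0.07 to 0.32, with a median of 0.02 for all 8, which was -0.087 without DiD+ cell 35.

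Complex II, which is also the succinate dehydrogenase of the TCA cycle, had 1 gene above 0 and 3 below, with a median of -0.04. Sdha, the flavoprotein with the active site, had 1.90, 395 and 673 CPM (lowest, median and highest) over DiD+ cells and 19.4, 449 and 766 CPM over DiD- cells. The distributions overlapped. Pooled, Sdha stood at 382 (379 to 386) and 476 (472 to 480) CPM, a ratio of -0.31, and -0.21 without the macrophage wells. Sdhb, Sdhd and Sdhc had -0.07, -0.02 and 0.07.

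Complex III had a median ratio of 0.16 over its 8 genes. The core proteins Uqcrc1 and Uqcrc2 and the Rieske iron-sulfur protein Uqcrfs1 were at -0.03, -0.02 and 0.01, while 5 small subunits ran from 0.14 (Uqcr11) to 0.30 (Uqcr10). Without DiD+ cell 35 the complex III median was 0.041, and by BASiCS 0.033. The 12 complex IV genes at 1 CPM or more had a median of 0.13, and 11 of the 12 were above 0, against 0.052 and 8 of 12 without DiD+ cell 35 and a median of 0.029 by BASiCS. Cox4i1 and Cox5a, which pair in the nuclear module around the catalytic core, had 0.12 and 0.23, and Cox7a2l, a factor of supercomplex assembly, had the highest, 0.32. Cox5b was the exception, at -0.08. Summed over complex IV, DiD+ cells held 2998 CPM against 2708 CPM.

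Complex V was the complex with the highest nuclear sum, at 8202 (DiD+) and 8909 (DiD-) CPM. Its catalytic beta and alpha subunits, Atp5b and Atp5a1, made up 2671 and 1635 CPM of the DiD+ sum. Atp5b had 1051, 2705 and 4596 CPM (lowest, median and highest) over DiD+ cells and 2256, 3252 and 4198 CPM over DiD- cells. The DiD+ cells reached both lower and higher than the DiD- cells, and the ratio was -0.27, with -0.19 for Atp5a1. In the opposite direction, Atp5s, the coupling factor B subunit, had 0.41 and Atp5l, subunit g of the membrane part, 0.35. The ratio of the sums over the 17 genes was -0.12. Their median was 0.10 with 10 above 0, but -0.017 with 7 above 0 without DiD+ cell 35, and -0.044 by BASiCS.

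Of subunits with several isoforms, the widely expressed form carried the counts and the tissue-restricted form was at or near 0. Cox4i1 stood at 573 and 528 CPM in DiD+ and DiD- cells, while Cox4i2, the form linked to lung and low oxygen, had 11 counts, all of them DiD+. Cox6a1 stood at 304 and 265 CPM, and Cox6a2, the heart and muscle form, had 8 counts, all in DiD+ cell 24. Cox7a1, the other heart and muscle form, had 0.260 and 0.159 CPM against 207 and 206 CPM for Cox7a2. Cox6b2, Cox7b2, Cox8b and Cox8c, most of them known from testis or muscle, had no count in any cell, which allows up to 0.0205 CPM in the DiD+ and 0.0251 CPM in the DiD- sum. Ndufa4, a complex IV subunit, stood at 170 and 141 CPM, and its low-oxygen paralog Ndufa4l2 at 0.418 and 0.0753 CPM, with counts in 2 DiD+ cells and 1 DiD- cell. Atp5g1, Atp5g2 and Atp5g3, which encode the same mature c subunit, had ratios of -0.21, -0.10 and 0.10. Without DiD+ cell 35, Atp5g3 was at -0.0031 and Cox8a at -0.015.

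For levels per kilobase, length was that of all annotated exons of a gene together. It can exceed the length of the message, so the order depends on the annotation. The highest nuclear members, as the mean of both groups, were Atp5b (696 CPM per kilobase), Cox8a (564), Atp5a1 (558), Ndufa2 (437) and Uqcr11 (419). On their own counts 6 mitochondrial messages were above all of these, led by mt-Co1 (2931 CPM per kilobase), mt-Co2 (2667), mt-Cytb (2072) and mt-Atp6 (1987), while mt-Co3 (417) was not. Of the 97 nuclear members, 76 had a count in every cell.

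All mitochondrially encoded genes but mt-Nd4l had ratios above the nuclear median of 0.08. The catalytic oxidase subunit mt-Co1 had 1460, 4221 and 15198 CPM (lowest, median and highest) over DiD+ cells and 1469, 3681 and 8291 CPM over DiD- cells. The lowest cells were alike and the highest DiD+ cells exceeded all DiD- cells. The pooled levels were 5214 and 3843 CPM, a ratio of 0.44. mt-Cytb, the cytochrome of complex III, had 2647 and 2093 CPM (0.34), and mt-Nd1, a membrane subunit of complex I, had 845 and 609 CPM (0.47). mt-Nd2, mt-Nd4, mt-Nd5 and mt-Nd6, also membrane subunits of complex I, had ratios of 0.42, 0.41, 0.33 and 0.43. mt-Co2 and mt-Atp8 had 0.45 and 0.38. The 3 ratios furthest up were those of mt-Co3 (0.97), mt-Nd3 (0.77) and mt-Atp6 (0.58), and 1 gene, mt-Nd4l, was lower in DiD+ cells, at 0.342 (0.254 to 0.451) against 2.64 (2.36 to 2.95) CPM and a ratio of -1.44, from counts in 1 DiD+ and 4 DiD- cells.

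These outlying ratios belong to genes whose sequence also stands in the nuclear genome. Aligned to all annotated transcripts, 7 of the 13 mitochondrial genes matched an annotated nuclear pseudogene at 99% identity or more over at least 90% of its length, and all 7 pseudogenes lie next to each other on the minus strand of chromosome 1 (between 24611535 and 24616197 in GRCm38). Over the aligned stretch, 5 pairs had no differing base: mt-Co3 and Gm28437 over 783 bases, mt-Co2 and Gm28661 over 681, mt-Atp6 and Gm10925 over 678, mt-Nd4l and Gm10222 over 294, and mt-Nd4 and Gm28439 over 876. A read that lies inside such a stretch cannot be placed from its sequence. The start of mt-Co3 (chrM:8607-8666, plus strand, start codon in capitals) is the same 60 bases as chr1:24613912-24613971 on the minus strand, and is shown because most counts of this message were put on the copy.
mt-Co3 and Gm28437: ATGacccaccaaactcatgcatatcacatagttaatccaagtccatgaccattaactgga

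The remaining 2 pairs differed at 1 base each, counted from 1 at the start of the mitochondrial gene, T3C in mt-Nd3 against Gm28438 and A1066T in mt-Co1 against Gm29216. The differing base is in capitals in the following stretches, from chrM:9459-9481 (plus strand), chr1:24613097-24613119 (minus), chrM:6390-6413 (plus) and chr1:24616165-24616188 (minus). The mt-Nd3 pair aligned over 345 bases, from base 1 of the gene. The mt-Co1 pair aligned over 483 bases only, from base 1063 to base 1545, so the earlier bases of mt-Co1 have no match in this copy. Within the aligned stretches, little sequence separates gene and copy.
mt-Nd3: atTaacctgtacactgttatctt
Gm28438: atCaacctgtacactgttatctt
mt-Co1: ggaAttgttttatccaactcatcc
Gm29216: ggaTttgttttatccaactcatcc

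The authors' quantification split the counts between gene and copy in shares that varied from cell to cell. Gm28437 held 5588 (DiD+) and 3901 (DiD-) CPM, so that mt-Co3 itself kept 7.18% and 5.36% of the joint counts, and between 0% and 26.6% in single cells. mt-Nd4l kept 1.40% and 11.7%, mt-Nd3 74.4% and 60.7%, mt-Atp6 70.96% and 63.1%, mt-Co2 78.6% and 73.5%, and mt-Co1 78.2% and 83.5%. Gm28439 was at 0 in both groups, so mt-Nd4 kept all of its counts.

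**Figure D2:**
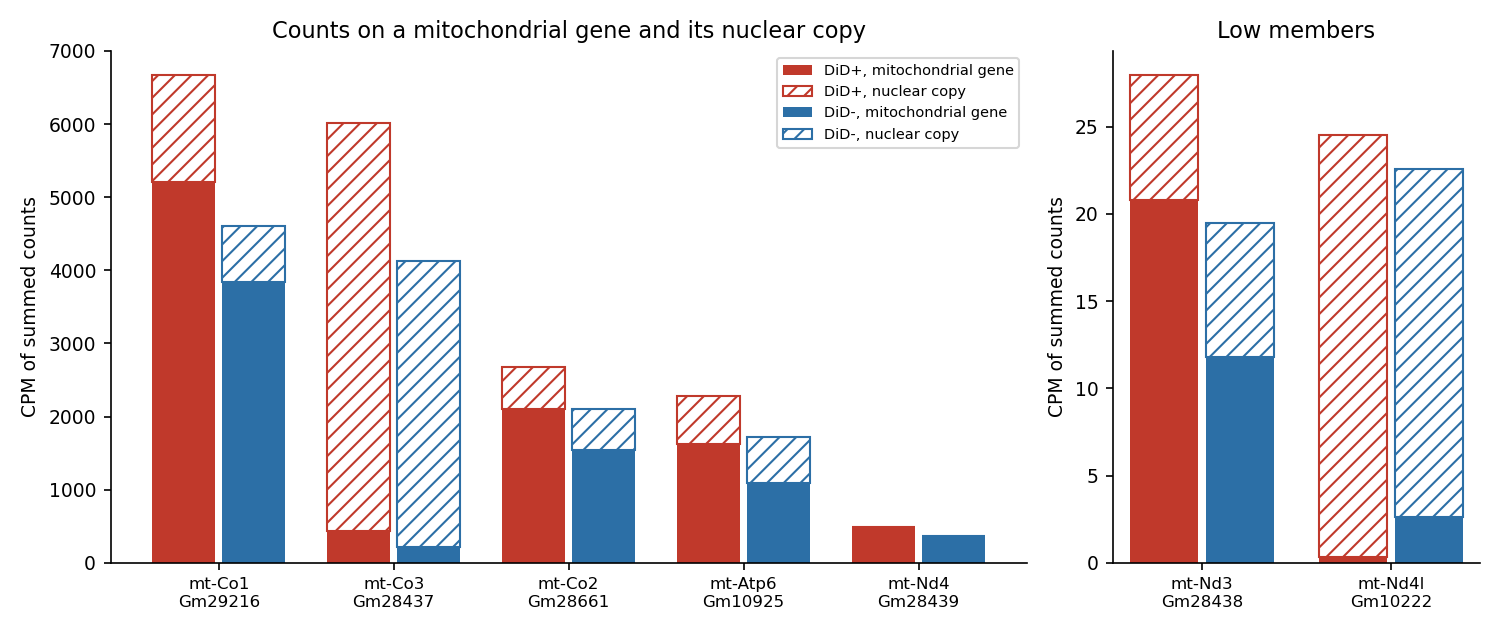
Pooled CPM (vertical axis, linear from 0) of 7 mitochondrial genes (filled) and of the nuclear pseudogene with a near-identical sequence (hatched), DiD+ in red and DiD- in blue. The mt-Co3 bar is nearly all hatched, 5588 of 6021 CPM in DiD+ cells, and the mt-Nd4l bars reach about the same joint height in both groups, 24.5 and 22.6 CPM.

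With gene and copy added, all 13 ratios were above 0 and lay closer together, from 0.11 for mt-Nd4l to 0.55 for mt-Co3, with a median of 0.41. mt-Nd3 came to 0.50, mt-Atp6 to 0.41, mt-Co2 to 0.35 and mt-Co1 to 0.53. mt-Co3 then stood at 6021 and 4122 CPM, which made it the highest member per kilobase (7680 and 5258 CPM per kilobase). Over cells the joint mt-Co3 level was 1709, 5631 and 21562 CPM (lowest, median and highest) in the DiD+ group and 1332, 4095 and 8579 CPM in the DiD- group. It was present in all 60 cells, where mt-Co3 alone had a count in 28 of 32 and 21 of 28. The rank correlation with mt-Co1 over cells was 0.57 (DiD+, n = 32) and 0.35 (DiD-, n = 28) for mt-Co3 alone and 0.92 and 0.91 for the joint level. Points of such a correlation share library and depth. The mitochondrial sum with all copies was 22340 and 16171 CPM, a ratio of 0.47.

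Neighboring mitochondrial genes overlap as well, and the kits used (SMARTer cDNA and Nextera XT) do not mark strand. mt-Atp8 and mt-Atp6, the membrane subunits of complex V, share 43 bases, and mt-Nd4l and mt-Nd4 share 7. Both overlaps are shown in capitals with 10 bases on each side, from chrM:7917-7979 and chrM:10157-10183 on the plus strand, since a read there belongs to either gene.
mt-Atp8 and mt-Atp6: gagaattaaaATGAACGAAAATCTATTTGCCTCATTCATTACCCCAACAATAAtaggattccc
mt-Nd4l and mt-Nd4: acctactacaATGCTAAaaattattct
mt-Nd6, the 1 member on the minus strand, stood at 26.1 and 19.02 CPM and cannot be told apart from antisense reads of the plus-strand precursor.

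Among nuclear members, 9 had a near-identical pseudogene by the same criteria, and in 3 of them over 10% of the joint counts were on the copy. Ndufb4 kept 34.8% and 34.2% of its joint counts with Ndufb4c, which is itself a member by its symbol and identical over 390 bases. Ndufa12 kept 52.6% and 53.2% with Gm15920, and Atp5g2 kept 86.5% and 86.5% with Gm10175. Here the shares were alike in both groups, and the joint ratios were 0.35, -0.04 and -0.10, close to those of the genes alone (0.37, -0.05 and -0.10). The levels of these 3 genes are uncertain. The sums of nuclear members do not contain Gm15920 and Gm10175.

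By cell, DiD+ nuclear sums ran from 14579 to 36444 CPM (median 20887 CPM) and DiD- nuclear sums from 15518 to 30912 CPM (median 22182 CPM). Both groups covered nearly the same range, and 10 of 32 DiD+ cells were above the DiD- median. DiD+ mitochondrial sums ran from 4461 to 36231 CPM (median 11929 CPM) and DiD- ones from 3489 to 19288 CPM (median 10209 CPM). The groups overlapped, with 18 of 32 DiD+ cells above the DiD- median and 6 above the highest DiD- cell. The coefficient of variation of the mitochondrial sum was 51.7% over DiD+ and 37.8% over DiD- cells, and with any 1 cell left out it was at least 46.4% and at most 38.6%. For the nuclear sum it was 22.2% and 18.3%, and the DiD+ value was 18.8% without cell 35.

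Within cells, the median log2 ratio of mitochondrial to nuclear sum was -0.73 (-2.48 to 0.49) for DiD+ and -1.14 (-2.58 to 0.03) for DiD-. The ranges overlapped, but 25 of 32 DiD+ cells were above the DiD- median and 5 of 28 DiD- cells above the DiD+ median. With the nuclear copies added, the difference of the medians was 0.50 and again 25 of 32 DiD+ cells were above the DiD- median. Without the macrophage wells, the medians lay closer together, at -0.86 in 26 DiD+ cells and -1.15 in 27 DiD- cells. Those 6 DiD+ wells held 1384 to 19502 CPM of macrophage markers, where the other 26 held at most 194 CPM, and the pooled mitochondrial to nuclear difference without the macrophage wells of both groups was 0.44, against 0.46 with them. The runs of cell numbers differed in their lowest cells. Among cells 17 to 46 the lowest log2 ratios were -2.48 (DiD+ cell 18) and -2.58 (DiD- cell 46). Among cells 63 to 92 they were -1.18 (DiD+ cell 64) and -1.22 (DiD- cell 79). The part of the run in the difference between the groups was not tested.

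**Figure D3:**
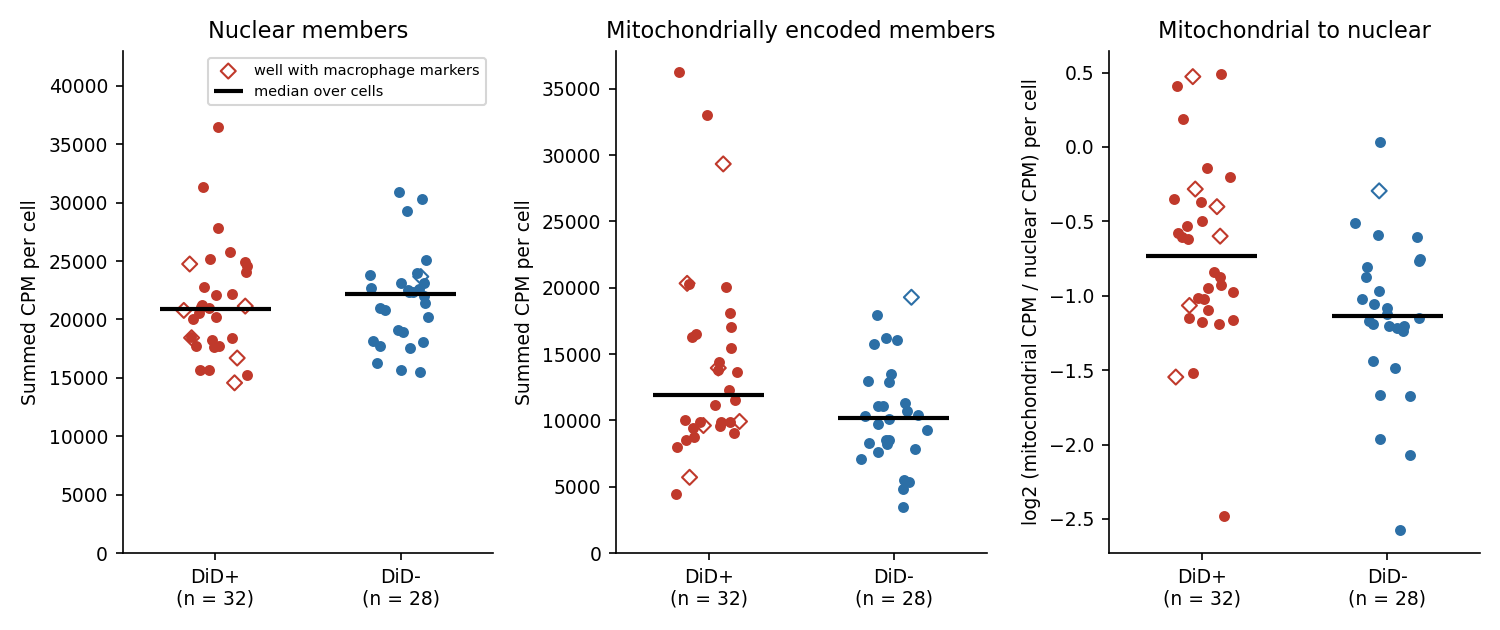
Summed CPM of nuclear members (left), of mitochondrially encoded members (middle) and the log2 ratio of the mitochondrial to the nuclear sum (right), 1 point per cell, with the median as a bar and wells that held macrophage markers as open diamonds. The nuclear sums of both groups overlap almost fully, 6 DiD+ cells lie above every DiD- cell in mitochondrial sum, and the DiD+ median of the ratio is 0.41 above the DiD- median.

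How much of each gene a cell held in absolute terms depends on the scaling, because the spike-in share of counts was higher in DiD+ cells, with a median of 1.88% (0.559% to 6.53%) against 1.51% (0.559% to 2.53%). Scaled to the ERCC spike-ins, the median over all genes was -0.34, a shift of -0.38 from the value by library total. Relative to that median the nuclear members stood at -0.08 and the mitochondrially encoded members at 0.25. In absolute terms by spike-in, the mitochondrial median was -0.09 and 2 of 13 genes were above 0, and the nuclear median was -0.43 with 3 of 86 above 0, so the statement that mitochondrial messages were higher in DiD+ cells holds only relative to the other messages of the cell. By spike-in the ratio of Ndufv3 was 0.24, of Ndufaf3 0.42, of Ndufaf6 -1.23 and of Ndufs1 -0.78. By library total, mean of cell CPM, BASiCS, spike-ins and thinned counts, 12 of the 13 mitochondrial genes were above the all-gene median. TMM, DESeq2 factors and a library total without mitochondrial genes rescale all genes of a group alike. They leave such positions all but fixed, so the same count under them is no further check. The nuclear median was 0.06 by TMM and DESeq2 factors alike, and -0.02 by the authors' BASiCS values, where 40 of 86 members were above 0.

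**Figure D4:**
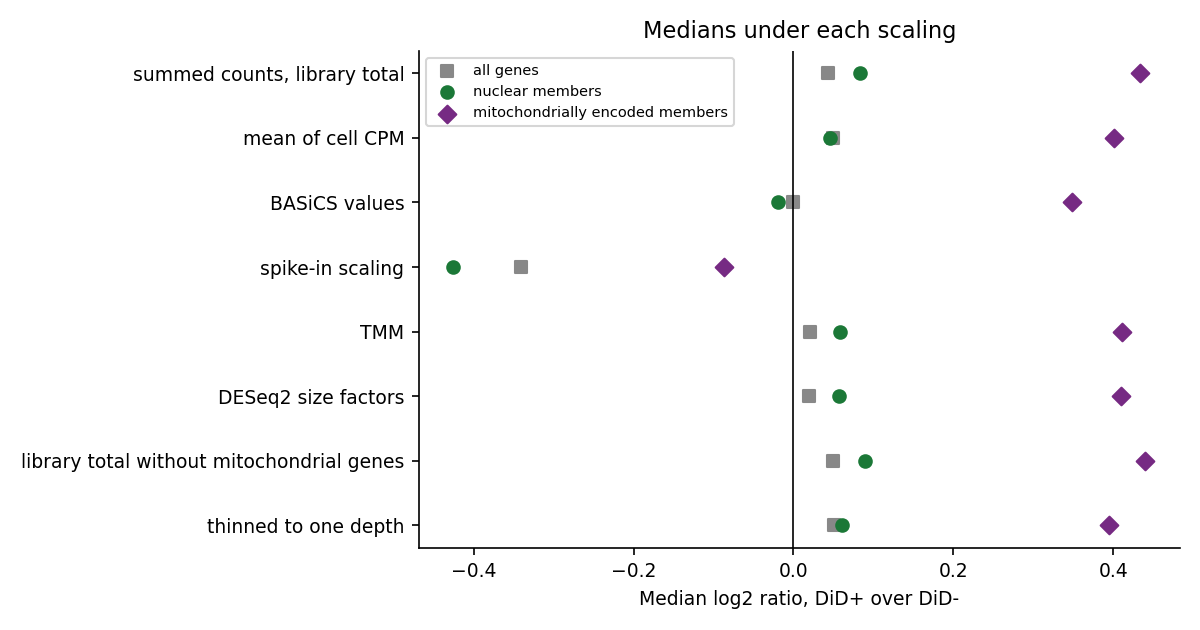
Median log2 ratio of DiD+ over DiD- (horizontal axis) for all genes (squares), nuclear members (circles) and mitochondrially encoded members (diamonds) under 8 scalings. The circles stay near the squares and the diamonds lie to the right of both in each row, while spike-in scaling moves all 3 to the left, to -0.34, -0.43 and -0.09. The rows of TMM, DESeq2 factors and library total without mitochondrial genes shift the library total row as a whole. Their spacing is no separate check.

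Within a group, the nuclear sum of a cell went with its ribosomal protein messages. Spearman's rho was 0.67 (DiD+, n = 32) and 0.76 (DiD-, n = 28) with mitochondrial ribosomal proteins and 0.65 and 0.77 with cytosolic ribosomal proteins. The rho of nuclear with mitochondrial sum was lower, 0.35 and 0.52. Pairs of mitochondrial genes had a median rho of 0.64 in both groups over 9 genes, pairs of nuclear genes 0.26 (DiD+) and 0.35 (DiD-) over 67 genes. The mitochondrial sum and the cell cycle genes ran against each other, at -0.24 in DiD+ and -0.60 in DiD- cells, and its rho with the spike-in share of the cell was 0.54 and 0.39. All of these share the library total as a divisor, and their part in the difference between the groups was not tested.

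Other genes of the pathway were taken as lists, to be read against all genes, of which 46.8% were below 0 (58.4% of those at 100 CPM or more). Of the 17 TCA cycle genes, which supply NADH and succinate, 15 were below 0 and 2 above, with a median of -0.18 and 1 gene at least 1.5-fold lower, where all genes at 100 CPM or more had 7.78%. Idh2 was the lowest, at 326 and 502 CPM (-0.62), and Idh3b the highest, at 175 and 154 CPM (0.18). Of the 17 glycolysis genes at 1 CPM or more, 13 were below 0, with a median of -0.22. Among those at 10 CPM or more, Pfkp, a phosphofructokinase, was lowest at -0.57 and Hk2, a hexokinase, highest at 0.48. Electron carriers and their enzymes had a median of -0.24 over 16 genes, 11 of them below 0, and a median of -0.15 without the macrophage wells. Cycs (cytochrome c) and Cyc1 (cytochrome c1 of complex III) were at -0.16 and -0.25, and Pdss1 and Coq5, both of ubiquinone synthesis, were the lowest and the highest at -1.04 and 0.74. The 37 assembly factors of other names had a median of 0.03, from Uqcc1 (-0.85) to Sdhaf1 (0.70), with 1 at least 1.5-fold higher and 3 at least 1.5-fold lower (20.8% and 12.1% over all genes). The 78 mitochondrial ribosomal protein genes had a median of -0.05, from -0.52 (Mrpl18) to 0.43 (Mrpl53), and the 83 cytosolic ones 0.04 (-0.036 without DiD+ cell 35), from -0.34 (Rps16) to 0.61 (Rpl22l1).

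Genes that transcribe, copy and stabilize mitochondrial DNA and its messages went in both directions, with 4 of 15 at least 1.5-fold higher and 2 at least 1.5-fold lower, shares of 26.7% and 13.3% that lie near the 20.8% and 12.1% of all genes. Tefm, the mitochondrial elongation factor, stood at 31.9 and 15.8 CPM (0.97), and Lrpprc, which stabilizes mitochondrial messages, at 37.3 and 64.8 CPM (-0.78). Tfam, which packages and helps transcribe mitochondrial DNA, stood at 46.6 and 45.9 CPM (0.02), and the polymerase Polrmt at 43.1 and 49.6 CPM (-0.20). Among nuclear regulators, Nrf1 was at 52.9 and 77.2 CPM (-0.54), Pprc1 at 33.98 and 36.7 CPM (-0.11), Gabpa at 25.2 and 28.8 CPM (-0.19) and Esrra at 2.70 and 1.74 CPM (0.43). Ppargc1a, the coactivator PGC-1 alpha, had no count in any cell.

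**Figure D5:**
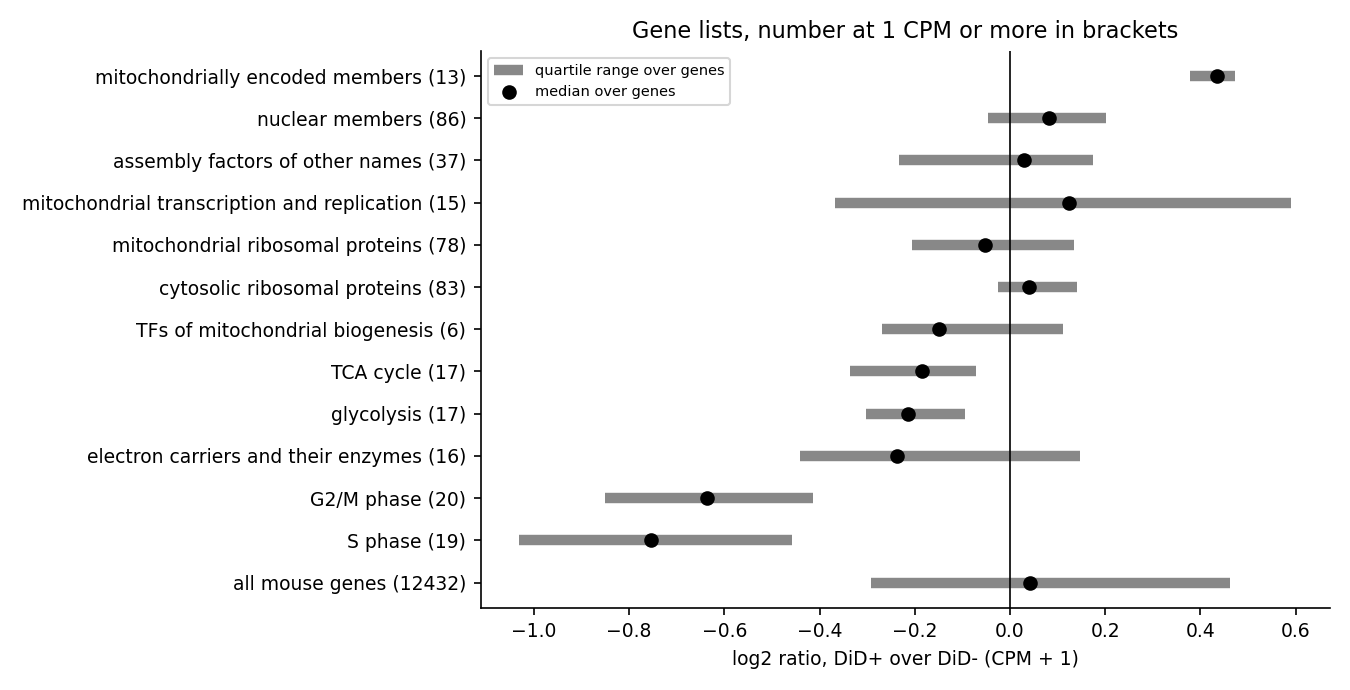
Median (points) and quartile range over genes (bars) of the log2 ratio of DiD+ over DiD- for each gene list, with the number of genes at 1 CPM or more. The mitochondrially encoded genes have a median of 0.43, nuclear members of 0.08, TCA cycle of -0.18, glycolysis of -0.22 and S phase of -0.75.

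Promoters of the nuclear members were searched for the letters bound by the factors above, in RefSeq windows of 250 bases before to 50 after each start (GRCm38.p6). A window was given for 74 of the 97 members, 79 windows in all. On either strand, CGCATGCG (NRF1) was in 13.9% of the member windows and 1.87% of all 32851 windows, CCGGAAG (ETS factors such as GABP) in 22.8% and 8.86%, AAGGTCA (ERR) in 10.1% and 4.72%, and AAGATGGC (YY1) in 12.7% and 2.75%. The median ratio was 0.14 for the 11 members with CGCATGCG and 0.05 for the 59 without. It was 0.13 and 0.05 for CCGGAAG (18 and 52 members), 0.17 and 0.06 for AAGGTCA (8 and 62), and -0.01 and 0.11 for AAGATGGC (10 and 60). These medians were not recomputed without DiD+ cell 35, whose removal moved the nuclear median from 0.08 to -0.0017. A link of motif and ratio was not tested. The stretches before the start are shown for Atp5l, which held 3 of the motifs, for Ndufaf4 with 1, and for Ndufv3, the member with the highest ratio, with none. The motifs are in capitals, and the stretches are chr9:44920743-44920992 (minus), chr4:24897833-24898082 (plus) and chr17:31519865-31520114 (plus).
Atp5l: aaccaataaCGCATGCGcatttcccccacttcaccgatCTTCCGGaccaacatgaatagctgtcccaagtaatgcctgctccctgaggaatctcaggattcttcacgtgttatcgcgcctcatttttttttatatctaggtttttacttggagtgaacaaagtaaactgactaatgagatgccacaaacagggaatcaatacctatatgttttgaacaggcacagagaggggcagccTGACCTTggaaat
Ndufaf4: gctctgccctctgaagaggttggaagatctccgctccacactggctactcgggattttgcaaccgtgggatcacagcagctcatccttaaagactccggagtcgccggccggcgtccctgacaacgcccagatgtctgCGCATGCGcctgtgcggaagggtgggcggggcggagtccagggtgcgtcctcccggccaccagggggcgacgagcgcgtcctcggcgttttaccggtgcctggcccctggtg
Ndufv3: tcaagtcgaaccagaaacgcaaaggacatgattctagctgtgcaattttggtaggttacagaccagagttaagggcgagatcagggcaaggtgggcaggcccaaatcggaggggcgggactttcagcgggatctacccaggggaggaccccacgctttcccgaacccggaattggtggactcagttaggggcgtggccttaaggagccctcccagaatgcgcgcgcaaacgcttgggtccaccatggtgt
In Atp5l the capitals are the reverse complement of CCGGAAG and of AAGGTCA, and CGCATGCG, which reads the same on both strands. Atp5l and Ndufaf4 had ratios of 0.35 and 0.06. The 23 members without a window were not searched.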

How the data were processed

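Per the labels and the study's methods, single-cell cDNA was made with the SMARTer kit and reads were aligned with STAR to GRCm38/mm10. The values the authors deposited are estimated counts from RSEM, not normalized, with the spike-in and transgene sequences added to the genome. Their BASiCS table, a normalized signal made by the authors, was used only as an alternative scaling. All 60 count columns matched a cell by label and 0 were left unused. Counts were rounded, summed over a group and divided by the total on mouse genes. Log2 ratios used a pseudocount of 1 CPM, and the lists covered genes at 1 CPM in a group. With 1 sample per group no test was run. A count of 0 allows 3 counts over the group. Genes were named by a rule: all mitochondrial members, the 8 highest and 8 lowest ratios among nuclear members at 10 CPM or more, core subunits, isoforms, the 5 highest per kilobase, and the extremes of each other list. Ndufb8, Ndufs3, Uqcr10, Cox5b and a few others were named after their values were seen. Pseudogene matches used BLAST 2.17.0 on GENCODE transcripts. TMM came from edgeR 4.0.16 and size factors from DESeq2 1.42.0. The pooled ratio was checked on simulated data in which each gene varied independently in each cell. That setting cannot speak to a cell in which many genes move together. The members and lists were chosen with earlier results of these data known. Some items are not reported here.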

Additional observations from a re-analysis of the deposited data

How the results depend on the processing

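Each choice was changed alone, and values are log2 ratios of DiD+ over DiD- in the order nuclear median, mitochondrial median, nuclear sum, mitochondrial sum and mitochondrial to nuclear sum, with 0.08, 0.43, -0.01, 0.45 and 0.46 as reported. They were 0.046, 0.40, -0.027, 0.44 and 0.47 for the mean of cell CPM, -0.020, 0.35, -0.084, 0.37 and 0.46 for BASiCS values, and 0.061, 0.40, -0.027, 0.44 and 0.47 for cells thinned to 2200000 counts. Spike-in scaling gave -0.43, -0.087, -0.46, -0.062 and 0.40, with 0 nuclear members at least 1.5-fold higher and 12 lower (2 and 1 as reported). It left 2 of the 13 mitochondrial genes above 0 (12 as reported), with mt-Nd3 among those turned, at -0.050. For the first 4 values TMM gave 0.058, 0.41, -0.039 and 0.42, DESeq2 factors 0.057, 0.41, -0.040 and 0.42, and a library total without mitochondrial genes 0.089, 0.44, -0.0085 and 0.45. The mitochondrial median was 0.44 with a pseudocount of 0.1 CPM. A pseudocount of 10 CPM gave medians of 0.079 and 0.40 and 1 nuclear member at least 1.5-fold higher. No minimum CPM gave a nuclear median of 0.067, and 0 members were at least 2-fold higher. Without the macrophage wells the 5 values were 0.10, 0.41, 0.023, 0.46 and 0.44, without the erythroid wells 0.12, 0.43, 0.0062, 0.51 and 0.50. Chosen after seeing the data, leaving out both kinds of well gave 0.11, 0.40, 0.014, 0.46 and 0.45, and adding the nuclear copies a mitochondrial median of 0.41, sum of 0.47 and mitochondrial to nuclear ratio of 0.48, with mt-Nd4l turned to 0.11. Leaving out 1 cell at a time, the nuclear median ran from -0.0017 (without DiD+ cell 35) to 0.11, the mitochondrial median from 0.34 (also without cell 35) to 0.48, the nuclear sum from -0.051 to 0.0044, the mitochondrial sum from 0.38 to 0.48, and the mitochondrial to nuclear ratio from 0.41 (without cell 21) to 0.51 (without cell 71). The members at least 1.5-fold higher numbered 1 (without cell 75) to 2, and those lower 1 to 2 (without cell 42). The cause of these differences was not tested. Of the 1006 log2 ratios of single genes and other lists under these alternatives, 76 had the opposite sign, 35 of them under spike-in scaling. No paired analysis was possible because the labels name no animal for a cell, the replicate numbers are only names, and no test was run. With 1 sample per group, the difference between groups has no replicate check, and depth limits only the rarest members.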
